A study of Mus musculus with 8 samples.

Results

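The 8 genes of O-GlcNAc cycling and of the hexosamine pathway were followed in ChIP-seq peak lists from mouse neural progenitor cells. They are Oga, Ogt, Gfpt1, Gfpt2, Gnpnat1, Pgm3, Uap1 and Nagk, chosen by name as a pathway with earlier results of these data known. All 8 were found among the 21883 protein-coding genes of the RefSeq annotation of mm10. Each gene was taken as its body with 1 kb on either side. The cells were primary hippocampal progenitors of male C57BL/6 mice, with no genetic change or treatment named in the labels. ChIP was carried out for Mgea5, Panx2 and Polr1c, with 2 replicate libraries each, and 2 input libraries made up the 8 samples. Mgea5 is the protein made by Oga, so 1 of the 8 genes encodes a protein that was itself immunoprecipitated. Panx2 is a pannexin channel protein, and Polr1c is a subunit that RNA polymerases I and III have in common.

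O-GlcNAc is a single sugar that Ogt attaches to serines and threonines of nuclear and cytoplasmic proteins and that Oga removes again. The donor, UDP-GlcNAc, is made by the hexosamine pathway. Gfpt1 and Gfpt2 turn fructose 6-phosphate and glutamine into glucosamine 6-phosphate, the entry step. Gnpnat1 adds the acetyl group, Pgm3 moves the phosphate, and Uap1 joins the sugar to UDP. Nagk returns free GlcNAc to the pathway by phosphorylating it. In the brain the modification is found on many neuronal proteins, and in mice loss of Ogt is not tolerated by the embryo.

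The lists held 536877 and 521566 Mgea5 peaks, 145405 and 478662 Panx2 peaks, and 826 and 35927 Polr1c peaks, in replicates 1 and 2. The fold enrichment given with each peak is the authors' ratio of ChIP to background, and it was used within a list only. Most peaks were weak, with a median fold of 1.71 to 1.84 in the Mgea5 and Panx2 lists. Peak names within the lists begin with 2 different prefixes, and replicate 1 of Panx2 and of Polr1c carried a different prefix from their replicate 2. The prefixes were read as 2 calling runs, which the labels do not state. Differences between those replicates cannot be told apart from any differences between such runs. Whether replicates came from separate cultures is not stated in the labels. The lists hold no read counts and there are 2 libraries per protein, so the values below are descriptions, set beside the same values over all protein-coding genes, and no test was run. Inputs and read depths were not used here. The cell type label was not checked, since these peaks do not measure expression.

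Oga was the member with Polr1c at its start site, and its promoter is shown with that of Ogt, the gene of the opposing enzyme, and that of Gfpt1, the member whose promoter carried Mgea5 peaks of both replicates. The sequences are from RefSeq (GRCm38.p6), 5′ to 3′ on the strand of the gene, from 250 bases before the start site to 50 bases from it on. Capitals mark the 135 bases under the Polr1c peaks of both replicates in Oga (chr19:45783504-45783803, minus strand), the 144 bases under the Mgea5 peak of replicate 1 in Ogt (chrX:101639801-101640100, plus strand), and the 53 bases under the Mgea5 peaks of both replicates in Gfpt1 (chr6:87042596-87042895, plus strand).
Oga promoter: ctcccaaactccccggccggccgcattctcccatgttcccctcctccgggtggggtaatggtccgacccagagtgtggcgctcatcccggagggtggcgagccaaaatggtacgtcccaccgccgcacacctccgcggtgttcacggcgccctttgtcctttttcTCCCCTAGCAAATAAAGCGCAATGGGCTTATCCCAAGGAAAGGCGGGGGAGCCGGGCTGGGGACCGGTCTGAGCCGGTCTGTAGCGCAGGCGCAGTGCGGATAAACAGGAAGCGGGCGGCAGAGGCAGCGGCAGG
Ogt promoter: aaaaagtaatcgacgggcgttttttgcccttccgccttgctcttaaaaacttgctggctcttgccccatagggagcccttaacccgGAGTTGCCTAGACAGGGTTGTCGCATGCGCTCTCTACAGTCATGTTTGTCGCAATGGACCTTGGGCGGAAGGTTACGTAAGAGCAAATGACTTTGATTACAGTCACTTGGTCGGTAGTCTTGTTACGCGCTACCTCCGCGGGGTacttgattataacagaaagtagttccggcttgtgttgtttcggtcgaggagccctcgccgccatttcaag
Gfpt1 promoter: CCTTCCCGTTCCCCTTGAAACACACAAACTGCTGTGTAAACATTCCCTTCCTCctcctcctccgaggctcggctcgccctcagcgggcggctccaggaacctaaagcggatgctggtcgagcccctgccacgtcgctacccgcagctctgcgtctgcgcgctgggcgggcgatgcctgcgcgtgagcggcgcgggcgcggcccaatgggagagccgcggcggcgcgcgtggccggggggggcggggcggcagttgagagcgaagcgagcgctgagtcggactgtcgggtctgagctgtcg

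At Oga (chromosome 19, 45750255 to 45783644), a Polr1c peak lay over the start site in both replicates. The peak spanned chr19:45783391-45783638 in replicate 1, with a fold of 3.63, and chr19:45783361-45783731 in replicate 2, with a fold of 5.74. The peaks were centred 38.5 bp and 7.0 bp downstream of the annotated start site at 45783553, and 248 bp were common to them. The evidence given with them differed. The −log10 q was 0 in replicate 1, where the −log10 p was 4.25, and 15.6 in replicate 2, where the −log10 p was 20.6. A −log10 q of 0 was carried by 513 of the 785 replicate 1 peaks on the main chromosomes, and the fold of 3.63 was the value of 29 of them. In replicate 2, by contrast, 149 of 35727 peaks had a higher fold than the one at Oga. Npm3, a gene of the nucleophosmin family, was the other annotated gene within 1 kb of Oga, 689 bp beyond the opposite end, and no gene transcribed by RNA polymerase III was annotated in that window.

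**Figure D1:**
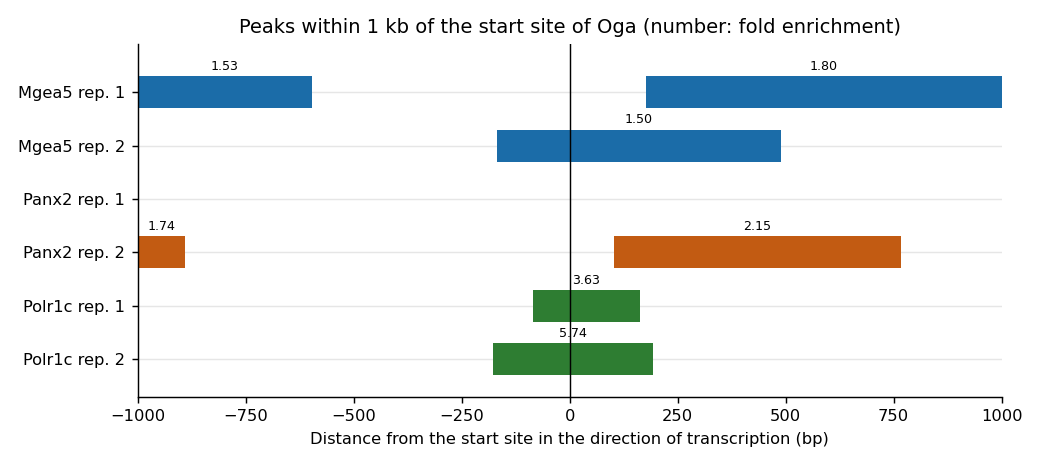
Peaks within 1 kb of the start site of Oga in the 6 lists. The x axis is the distance from the start site in bp, in the direction of transcription, each bar is a peak (bars that reach the edge go on beyond it), and the number above it is its fold enrichment. The Polr1c bars of both replicates (3.63 and 5.74) lie over the start site, and the Mgea5 and Panx2 bars have folds of at most 2.15.

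Around the same start site the Mgea5 and Panx2 peaks were placed differently in each list. Their folds were lower, but are not on one scale with those of Polr1c. Mgea5 replicate 2 had a peak over the start site, from −169 to 489 bp relative to it, with a fold of 1.497. In Mgea5 replicate 1 the nearest peak began 177 bp downstream and reached 1127 bp, with a fold of 1.80, and 14 bp lay between it and the Polr1c peak of replicate 1. The Panx2 list of replicate 2 had a peak from 103 to 767 bp downstream with a fold of 2.15, and another from −1471 to −892 bp with a fold of 1.74, and that of replicate 1 had none within 1 kb of the start site. The 248 bp under both Polr1c peaks were thus touched by Mgea5 in replicate 2 and by Panx2 in replicate 2, and in neither case by replicate 1. The Mgea5 and Panx2 peaks here had a −log10 q of at most 0.226.

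Polr1c peaks of both replicates within 1 kb of a gene end were rare among protein-coding genes, at 0.516% of them (113 genes), and Oga was the single member among them. Within 1 kb of a listed start site, peaks of both replicates were found at 82 of 17491 protein-coding genes, or 0.469%. Among these 82, Oga stood low to middle. Its fold ranked 71 in replicate 1, where the median was 5.64, and 48 in replicate 2, where the median was 7.37. By the geometric mean of both folds, 4.56, its rank was 61. A −log10 q of at least 2 was reached in both replicates at 53 of the 82 and in replicate 2 alone at 22, and Oga belonged to these 22. The centre of the replicate 2 peak lay at 7.0 bp relative to the start site at Oga, against a median of −109 bp over the 82 genes, with quartiles at −280 and 86.9 bp.

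**Figure D2:**
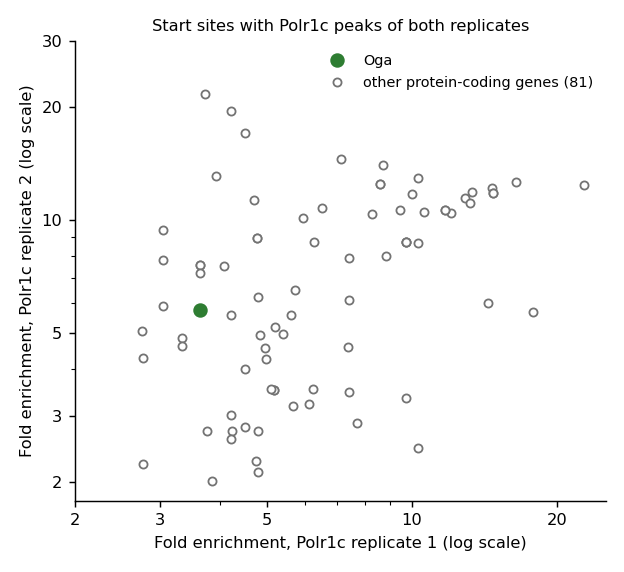
Fold enrichment of the strongest Polr1c peak within 1 kb of the start site in replicate 1 (x axis) and replicate 2 (y axis), both on log scales, for the 82 protein-coding genes with peaks of both replicates. Each point is a gene. Oga, at 3.63 and 5.74, is the filled point and lies below the medians of 5.64 and 7.37.

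The 3 genes most like Oga in the highest fold within 1 kb of a gene end, over all 6 lists, were Scamp1, Emx2 and Slc39a6. The Euclidean distance from Oga in log2 fold was 0.28, 0.29 and 0.43, with no peak counted as a fold of 1. Scamp1 is a gene of a secretory carrier membrane protein, Emx2 that of a homeodomain factor of the developing cortex and hippocampus, and Slc39a6 that of a zinc transporter. Scamp1 had Polr1c folds of 3.05 and 5.88, Emx2 of 3.34 and 4.85, and Slc39a6 of 4.5 and 4.71, in replicates 1 and 2, against 3.63 and 5.74 for Oga. Elp2, which begins at chr18:24603961, close to the end of Slc39a6 at 24603817, had the same Polr1c folds. Those folds are therefore not particular to Slc39a6. As at Oga, none of them had a Panx2 replicate 1 peak at an end, where 23.5% of all protein-coding genes had one. The Panx2 replicate 2 folds were 2.13, 2.17 and 2.17, against 2.15. The 3 genes were picked by these same folds, so their likeness to Oga follows from the choice. The members nearest to Oga by this measure were Gfpt2 and Nagk, at distances of 2.20 and 2.27, and the most distant was Gnpnat1 at 3.26. The measure pools both ends of a gene. In Gfpt2 and Nagk the Polr1c replicate 2 peaks, with folds of 2.57 and 2.45, lay at the end away from the start site. They lay 44301 to 44487 bp and 7170 to 7352 bp after it, with a −log10 q of 0.00137 and 0. The other members apart from Oga had no Polr1c peak at an end.

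In the gene body and flanks, 1 of 8 members had Polr1c peaks of both replicates, with 1.28% of all protein-coding genes. Replicate 1 had peaks in 2 members, beside 1.48% of all protein-coding genes, and the second was Uap1, at chr1:170155255-170155533, 19431 to 19709 bp after the start site, with a fold of 2.57 and a −log10 q of 0; replicate 2 had no peak in Uap1. In replicate 2, 5 members had peaks, which were Oga, Gfpt1, Gfpt2, Pgm3 and Nagk, where 42.6% of all protein-coding genes had at least 1. Gfpt1 carried the second strongest of them. It spanned chr6:87076041-87076208, 33195 to 33362 bp after the start site, with a fold of 4.003 and a −log10 q of 2.23, and replicate 1 had no peak in Gfpt1. With Oga this made 2 members with a −log10 q of at least 2 in replicate 2, beside 3.71% of all protein-coding genes. In Gfpt2 the strongest of 3 peaks had a fold of 3.06, and the peaks in Pgm3 and Nagk had folds of 2.86 and 2.45. These lower values were common in the list, where 4029 peaks had the same fold of 3.06 and 4501 the same 2.45. Ogt and Gnpnat1 had no Polr1c peak in either list.

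Mgea5 peaks of both replicates were found in all 8 members, where 82% of protein-coding genes had them, and Panx2 peaks of both replicates in 4, where 57.1% had them. The 4 were Oga, Gfpt1, Gfpt2 and Uap1, and these 4 are also the ones with a Panx2 replicate 1 peak at all. Within 1 kb of a gene end, Mgea5 peaks of both replicates were at 6 members, beside 64.3% of all genes. The exceptions were Ogt, which had none in replicate 2 there, and Gnpnat1, which had none in replicate 1. Panx2 peaks of both replicates were at the ends of none of the 8, beside 20.1% of all genes. Replicate 1 had no Panx2 peak at an end of any member, beside 23.5% of all genes, and replicate 2 had one at all 8, beside 82.1%. None of the Mgea5 or Panx2 peaks in the 8 genes had a −log10 p of 3 or more, and the highest −log10 q was 0.0880 for Mgea5, 26422 to 27025 bp into Uap1, and 0.655 for Panx2, over the start site of Uap1 (chr1:170174495-170176792, replicate 2, fold 2.35).

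The share of each gene under peaks allows for gene length, which differed from 7574 bp in Nagk to 49362 bp in Gfpt1. Oga had 35.4% and 23.7% of its bases under Mgea5 peaks in replicates 1 and 2, higher than in 89.0% and 87.8% of protein-coding genes. Gfpt2 had 33.3% and 32.6%, higher than in 86.3% and 96.7%, and Gfpt1 had 30.9% and 24.3%, higher than in 82.4% and 88.9%. These 3 genes were above the median of all protein-coding genes, 19.2% and 12.5%, in both replicates. Uap1, with 21.2% and 16.4%, was also above it, by less. Pgm3 had 26.8% in replicate 1 and 10.4% in replicate 2, and Nagk 34.8% and 3.90%, so that each lay above the median in replicate 1 and below it in replicate 2. The Nagk value of replicate 1 came mostly from a single peak of 3329 bp. Over the 8 members the median was 28.9% and 13.4%.

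**Figure D3:**
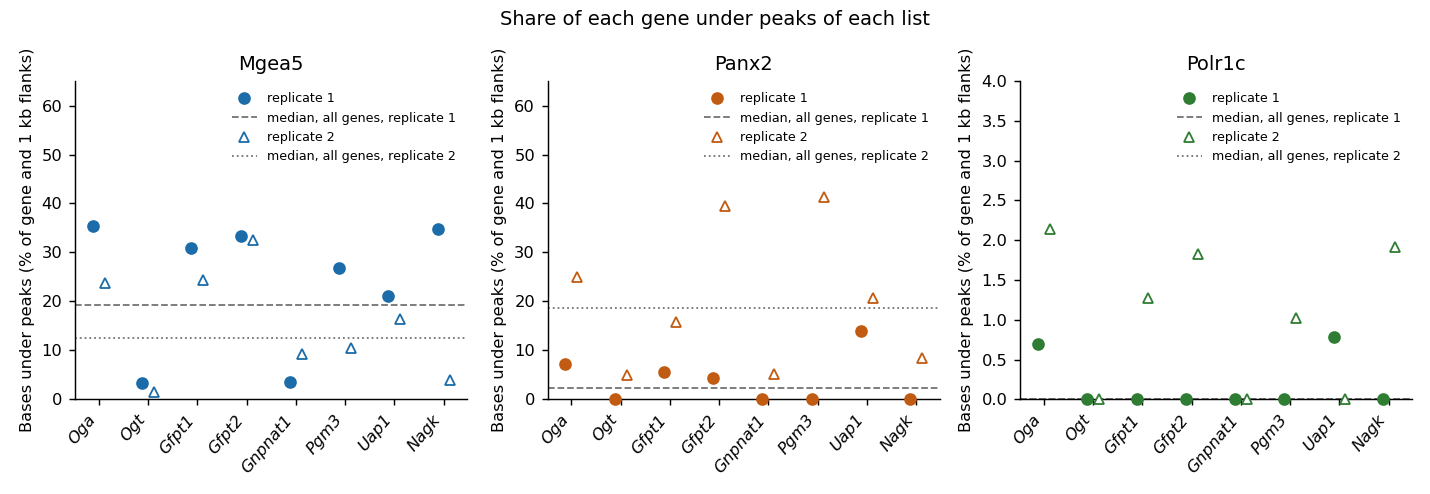
Percent of the bases of each gene and its 1 kb flanks under peaks, for each protein in 3 panels (the Polr1c axis is shorter). Filled circles are replicate 1, open triangles replicate 2, and the dashed and dotted lines are the medians over 21883 protein-coding genes. Oga, Gfpt1, Gfpt2 and Uap1 lie above both Mgea5 medians, and Ogt and Gnpnat1 lie below both.

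Ogt (chromosome X, 101640011 to 101684351) had 3.31% and 1.47% of its bases under Mgea5 peaks, lower than all other members in both replicates. Chromosome X had few peaks in general. The median over its 966 protein-coding genes was 1.28% and 0, and Ogt was above 68.8% and 74.8% of them. Of these genes 39.4% had Mgea5 peaks of both replicates in the gene and flanks, as Ogt did. Its 4 peaks of replicate 1 had folds of 1.62 to 2.08 and its 2 of replicate 2 folds of 1.67 and 1.73, and none of them overlapped between replicates. The replicate 1 peak marked in the promoter above lay from −164 to −21 bp relative to the start site and had a fold of 1.69. In the Panx2 list of replicate 2, Ogt had 6 peaks and 5.08% of its bases covered, against a chromosome median of 1.71%, and in that of replicate 1 it had none.

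**Figure D4:**
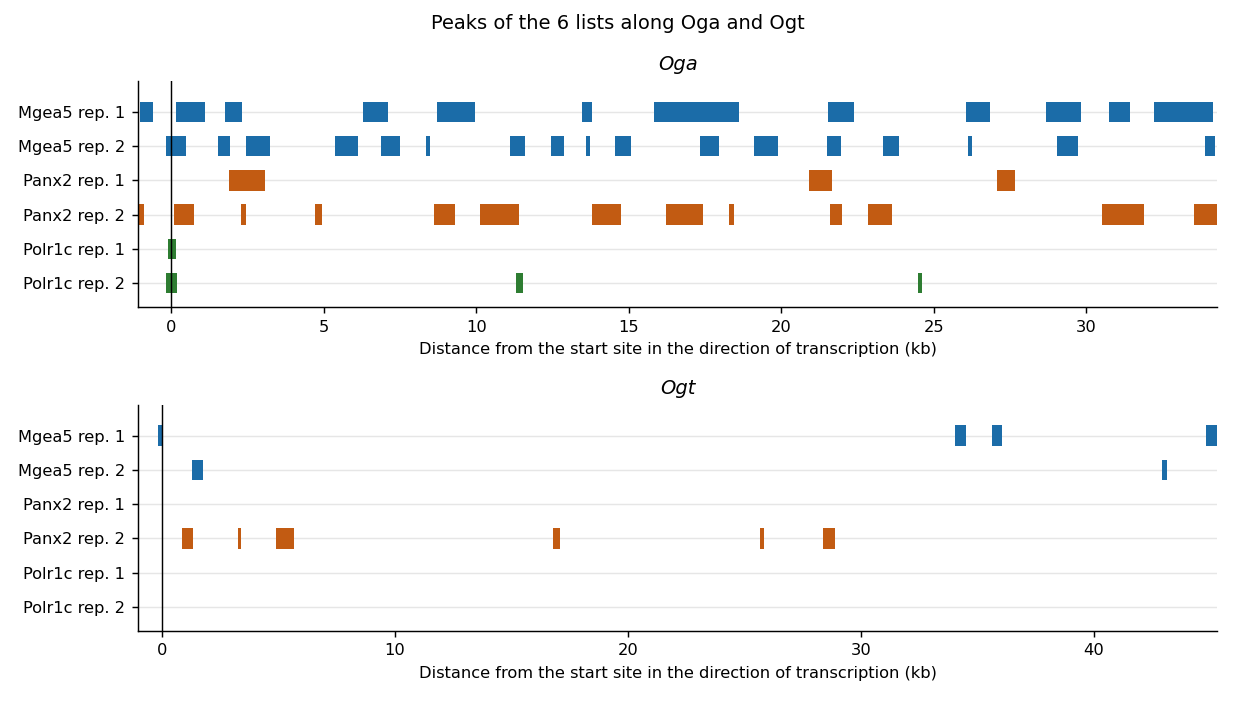
Peaks of the 6 lists along Oga (top) and Ogt (bottom), each with 1 kb on either side. The x axis is the distance from the start site in kb, in the direction of transcription, and each bar is a peak. Oga has 12 and 17 Mgea5 peaks along its whole length and Polr1c bars at the start site, whereas Ogt has 4 and 2 Mgea5 peaks and no Polr1c bar.

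Gnpnat1 (chromosome 14, 45376421 to 45388987) was the other member with little cover, at 3.56% and 9.21% for Mgea5. It lies at the border of the part of chromosome 14 beyond 45 Mb, which had few peaks as well. Over the 495 protein-coding genes of that part the median was 2.46% and 0.422%, and Gnpnat1 was above 63.0% and 98.4% of them. Mgea5 peaks of both replicates were found in 49.3% of these genes, and Gnpnat1 had 2 per replicate, in different places. A Panx2 replicate 2 peak at chr14:45383202-45383493 had a fold of 2.23. The gene overlaps Styx at its low-coordinate end, and no peak of the 6 lists lay in that overlap within the window.

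For Panx2 the replicates differed in all 8 genes. Uap1 had 13.96% and 20.8% of its bases under peaks of replicates 1 and 2, Oga 7.15% and 25.05%, Gfpt1 5.63% and 15.7%, and Gfpt2 4.37% and 39.5%. Pgm3 had no peak in replicate 1 and 41.3% of its bases under peaks in replicate 2, the highest value of any member and list. Over all protein-coding genes the medians were 2.24% and 18.7%, and the list of replicate 2 held more peaks in all. Relative to those medians Uap1 was high in replicate 1, above 94.2% of genes, and near the middle in replicate 2, above 56.0%. Rwdd2a lies 109 bp from the start end of Pgm3, and a Panx2 replicate 2 peak (chr9:86570777-86572996, fold 2.13) covers the start site of Pgm3 and reaches into Rwdd2a. Dop1a (chr9:86467141-86555806) overlaps Pgm3 at its low-coordinate end.

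Stretches under peaks of both replicates give the places where the lists coincide. For Mgea5 there were 39 in 5 members, with 12 in Gfpt2, 11 in Gfpt1, 9 in Oga, 6 in Uap1 and 1 of 4 bp in Nagk, and 70.6% of all protein-coding genes had at least 1. The strongest by the geometric mean of both folds was in Uap1 (chr1:170153810-170154333), 20631 to 21154 bp into the gene, with folds of 2.20 and 2.01. In Gfpt1 a replicate 2 peak with a fold of 2.15 met 2 replicate 1 peaks with folds of 1.85 and 1.90, from 7131 to 9026 bp after the start site. In Gfpt2 the stretch with the highest geometric mean, from folds of 1.75 and 1.98, ran for 1359 bp (chr11:49803854-49805212). The lncRNA gene Gm36507 (chr11:49789436-49846297) spans Gfpt2 and its flanks, so every peak counted in Gfpt2 also overlaps that gene. Of the bases under replicate 1 peaks in the 8 genes, 24.1% were under replicate 2 peaks too, against 19.4% over all protein-coding genes. Of those under replicate 2 peaks, 32.4% were under replicate 1 peaks, against 25.6%. Such shares rise with the bases that the other replicate covers. The median covered share was 28.9% and 13.4% in the members, against 19.2% and 12.5% over all protein-coding genes. Closer agreement of the replicates in these genes was not tested.

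For Panx2 there were 6 such stretches, in Oga, Gfpt1, Gfpt2 and Uap1, and 38.3% of all protein-coding genes had 1 or more. The longest, of 1170 bp, lay in Gfpt1 (chr6:87072822-87073991) with folds of 1.97 and 1.88. The bases shared were 14.8% of those of replicate 1 in the 8 genes, against 15.3% over all protein-coding genes, and 3.33% of those of replicate 2, against 4.53%. For Polr1c the stretch at the start of Oga was the only one in the 8 genes, and 0.681% of all protein-coding genes had at least 1. Of the 39 Mgea5 stretches, 3 touched a Polr1c replicate 2 peak. These were the one 177 to 489 bp after the start of Oga and 2 in Gfpt2, and none touched a Polr1c replicate 1 peak.

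For Mgea5 replicate 1 the highest values were 2.21 in Uap1, 2.08 in Ogt and 2.06 in Oga, and for replicate 2 they were 2.38 in Oga, 2.15 in Gfpt1 and 2.04 in Uap1. The Ogt peak of replicate 1 lay wholly beyond the end of the gene, and with the gene body alone the value for Ogt was 1.69. The Oga peak of replicate 2, 8355 to 8494 bp into the gene, was 140 bp wide, exceeded the highest fold of 96.3% of protein-coding genes, and had no replicate 1 peak over it. The strongest replicate 1 peak in Oga began at 8722 bp. Over the 8 members the median of the highest fold was 1.88 and 1.98 for Mgea5, against 1.96 and 1.92 over all protein-coding genes with a peak. For Panx2 replicate 2 it was 2.14, against 2.23, with Uap1 highest at 2.48 and Nagk lowest at 1.59.

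**Figure D5:**
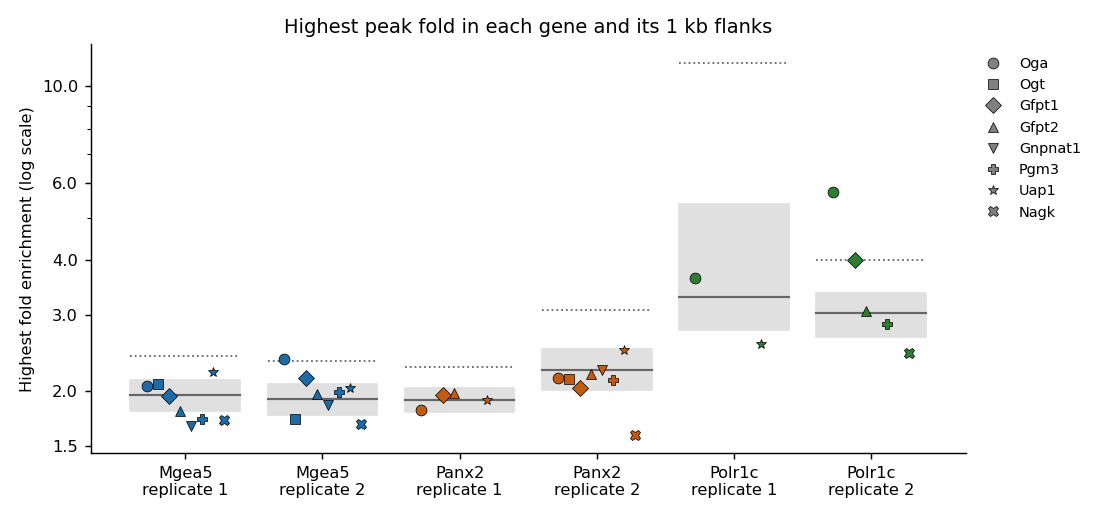
Highest fold enrichment of a peak in each gene and its 1 kb flanks, on a log scale, for the 6 lists. Symbols are the 8 genes (no symbol where a list has no peak), grey boxes the middle quartiles, lines the medians and dotted lines the 95th percentile of protein-coding genes with a peak. Oga at 5.74 in Polr1c replicate 2 and at 2.38 in Mgea5 replicate 2 lies above the dotted line, and the Mgea5 and Panx2 values of the other genes lie below it.

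The promoters of 7 members are in the RefSeq promoter table used here, and Gnpnat1 is not. Peaks over these 300 bases were found at Ogt, Gfpt1, Pgm3 and Uap1 for Mgea5 replicate 1, beside 40.7% of 17491 promoters of protein-coding genes, and at Oga and Gfpt1 for replicate 2, beside 20.3%. Panx2 replicate 2 covered the promoters of Gfpt1, Gfpt2, Pgm3 and Uap1 over their whole length, beside 46.7% of promoters with a peak, and replicate 1 touched none of the 7, beside 3.91%. Polr1c touched that of Oga alone in both lists, beside 0.360% and 5.03%. The promoter of Nagk had no peak in any list.

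The letters of the promoters were searched on both strands for 7 motifs, chosen after the peaks of these genes were known. The GC box GGGCGG was in all 7, and 46.3% of 17491 promoters hold it. The motif of the factor NRF1 was in those of Oga and Nagk, and 6.60% of promoters hold it. In Oga it reads GCGCAGGCGC and lies from −2 to 7 bp relative to the start site, within the capitals printed above. The letters CGGAAG, the core of ETS factor sites, were in Ogt, Pgm3, Uap1 and Nagk, beside 21.5% of promoters, and CCAAT in Gfpt1, Gfpt2, Pgm3 and Uap1, beside 39.0%. TATAAA and CACGTG were in none of the 7, beside 13.3% and 7.90%. The B box found in tRNA genes was in none of the 7, and 0.137% of promoters hold it. The motifs as searched can overlap each other, as GGGCGG and CGGAAG do in Ogt. The GC content was 51.0% for Ogt and 60.7% to 70.3% for the other 6, against a median of 56.3% over all promoters.

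Further genes of the pathway were taken as 2 lists, which were chosen with earlier results of these data known. The first held 30 genes of sugar nucleotide supply and use. Mgea5 peaks of both replicates were at the ends of 23 of the 30, or 76.7%, beside 64.3% of all protein-coding genes. Panx2 peaks of both were at 4, or 13.3%, beside 20.1%, and Polr1c peaks of both at none, beside 0.516%. Polr1c replicate 2 alone had peaks at the ends of 5 of the 30, beside 17.5% of all protein-coding genes. Among genes with peaks of both replicates at an end, the geometric mean of the Mgea5 folds was highest at Nagpa, the gene of the uncovering enzyme of the mannose 6-phosphate tag, with folds of 2.21 and 2.75, and next at Ugp2, the gene of UDP-glucose pyrophosphorylase, with 2.20 and 2.25. At Nagpa the −log10 q was 0.226 in replicate 1 and 3.23 in replicate 2. By the same measure Panx2 was highest among its 4 genes at Slc35a3, with folds of 1.76 and 2.51, the gene of the Golgi UDP-GlcNAc transporter, and next at Alg14, with 1.76 and 1.92, a gene of the second step of N-glycan precursor assembly. Hk1, a hexokinase gene named here after its values were seen, was the single gene of this list with Polr1c peaks of both replicates anywhere in the gene, with highest folds of 2.75 and 3.005 in places that did not overlap. That is 1 of 30 genes, beside 1.28% of all protein-coding genes.

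The second list held 18 genes of reported Ogt partners and substrates. Mgea5 peaks of both replicates were at the ends of 17, or 94.4%, beside 64.3% of all protein-coding genes. These peaks were weak, with a −log10 q of at most 0.0314, at Tet2. The exception was Hcfc1, on chromosome X, with no replicate 1 peak at an end. The share over all genes includes chromosome X and distal chromosome 14, where peaks were few. Panx2 peaks of both were at 5, or 27.8%, beside 20.1%, and Polr1c peaks of both at none, beside 0.516%. By the geometric mean of both replicates, Mgea5 was highest at Tet3, a gene of a 5-methylcytosine dioxygenase, with folds of 2.09 and 1.94, and next at Trak2, a gene of a mitochondrial transport adaptor, with 1.83 and 2.02. Among the 5 genes with Panx2 peaks of both replicates at an end, that mean was highest at Trak2, with folds of 1.75 and 2.62, and next at Sp1, the gene of a GC box factor, with 1.90 and 2.17. Polr1c replicate 2 had peaks at the ends of 4 of the 18, beside 17.5% of all protein-coding genes. Of these, Tet1 (fold 5.58, −log10 q 13.7), Foxk2 (4.64 and 5.60) and Foxk1 (3.54 and 3.41) had a −log10 q of at least 2, beside 2.22% of all protein-coding genes, and they are named after their values were seen. Replicate 1 had no Polr1c peak at any of them.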

How the data were processed

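ChIP-seq peak lists of 6 libraries (Mgea5, Panx2 and Polr1c, 2 replicates each) were used. Per the submitters' processing notes, which list names without roles, the tools were MACS3 3.0.0a5, Bowtie2 2.3.5 and Trim Galore, with the build mm10. The control used and the cut-offs were not given in the sources used here. Deposited values are the authors' fold enrichment (a ratio) with its −log10 p-value and −log10 q-value. Layouts are broad (Mgea5, Panx2) or narrow (Polr1c). Read depth is unknown, so no interval was computed.

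Members and lists were chosen with earlier results of these data known. Each list was matched to its sample by its name and the sample's title. Peaks on the 21 main chromosomes were intersected (overlap of at least 1 bp) with genes of the RefSeq GRCm38.p6 table, whose coordinates are those of mm10, as gene and 1000 bp on either side or 1000 bp around each end. Start sites came from the RefSeq promoter table, the one searched for motifs. The gene table gives no exons, so peaks were not assigned to exons or introns. Percentiles are the percent of protein-coding genes with a lower value. Named genes are the 8 members, the 2 genes per further list and protein with the highest geometric mean fold at an end in both replicates, genes there with a −log10 q of at least 2 in both, the 3 genes nearest to Oga, and neighbours. Hk1, Tet1, Foxk1 and Foxk2 fall outside this rule and were named after their values were seen. Python 3.11.15, numpy 2.4.6 and pandas 2.3.3 were used, and the interval functions were tested on simulated data. Alternatives were other windows, peaks with a −log10 q of at least 2 or a −log10 p of at least 3, equal list lengths, a reciprocal overlap of 50%, and leaving out each replicate.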

Additional observations from a re-analysis of the deposited data

How the results depend on the processing

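No paired analysis was possible because the counts come from no test. With a −log10 q of at least 2 required in every list, the counts for the members fell to 0 for all 3 proteins, the Oga start site included, since its replicate 1 peak has a −log10 q of 0. With a −log10 p of at least 3 the Mgea5 and Panx2 counts were 0, and the Polr1c counts kept their value of 1. With lists of equal length, the shared Panx2 stretches went down to 1 and the other counts stayed as reported. A reciprocal overlap of 50% left 6 of 39 shared Mgea5 stretches and 0 of 6 for Panx2, while the Polr1c stretch at Oga remained. At start sites alone, Mgea5 peaks of both replicates were at 3 of the 7 members with a listed start site, beside 43.2% of protein-coding genes with one, in place of 6 of 8 members. With 2.5 kb around an end, Panx2 peaks of both replicates were at 2 members in place of 0.

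Leaving out each replicate in turn gave 4 to 8 members with Panx2 peaks in the gene, 0 to 8 at an end, 2 to 5 with Polr1c peaks in the gene and 1 to 3 at an end. The lower Panx2 values are those without replicate 2. It gave 73 to 75 Mgea5, 10 to 71 Panx2 and 2 to 11 Polr1c peaks, in place of shared stretches. The Polr1c stretch at Oga overlapped a peak of Mgea5 and of Panx2, counted as 1 each. Both became 0 where peaks of both replicates or a reciprocal overlap of 50% were required, and with each replicate left out they ran from 0 to 5 for Mgea5 and 0 to 4 for Panx2. For single genes, a value was counted as moved where it changed by more than the standard deviation of its 2 replicates. The covered share moved for 1 of 48 values with the gene body alone and 5 of 48 with 5 kb on either side. The highest fold moved for 3 of 48 with each. This spread was often wide, so the counts do not show that the values were stable. Mgea5 replicate 2 in Nagk fell from 3.90% to 0 with the gene body alone and was not counted, with a spread of 21.9. With a −log10 p of at least 3, 43 of 48 values were 0 for each quantity, some of them 0 as reported too. The covered share was counted as moved for 26 of 48 and the highest fold for 30 of 48. Some falls to 0, such as that from 7.15% for Panx2 replicate 1 in Oga, lay within the spread and were not counted.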
